A study of Rattus norvegicus with 50 samples.

Results

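Lungs of control F344 rats taken 28 days (D28) after the end of a 4-week inhalation period were compared with lungs of control rats taken 3 days (D3) after it. Each group held 5 rats with 1 array each, so 10 of the 50 arrays of the series were compared, and the groups are those of the labels. The comparison was taken up because its clock genes were known, from earlier results of these data, to differ strongly. All of these rats were males of the inbred F344 strain, 12 weeks old per the labels, and none received particles. They breathed filtered air through the nose only, for 6 h a day on 5 days a week during 4 weeks, in the way that the exposed rats of the study breathed titanium dioxide (TiO2) P25 nanoparticles at 10 mg/m3. RNA from the accessory lobe, 100 ng per rat, was labelled with Cy3 and hybridised to a one-colour Agilent array. The D28 rats were also older at necropsy and further from the last nose-only session, and the hour of necropsy is not given in the sources used here. Age, time since the last session, necropsy day and hour of necropsy therefore cannot be told apart in this comparison.

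The largest changes were in genes of the circadian clock, which made up 12 of the 152 genes called. In this clock, Arntl (BMAL1) pairs with Clock or Npas2 and switches on the Per, Cry, Nr1d and Dbp genes, whose products then repress that pair or pass the rhythm on to other genes. Nr1d1 and Nr1d2 (REV-ERB alpha and beta) repress Arntl and Npas2, so in a running clock these genes peak at opposite phases of the day. Lung epithelium, fibroblasts and macrophages hold such clocks, which follow feeding, light and glucocorticoid cues.

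The arrays of both groups were alike in depth. The median processed signal of an array lay between 268.7 and 400.5 linear fluorescence units at D3 and between 273.3 and 419.9 at D28. From 70.6% to 79.0% of the gene spots of these arrays were well above background. Correlations over genes ran from 0.978 to 0.992 within a group and from 0.975 to 0.993 between groups. The arrays lay on 4 slides, and each of these slides held arrays of both groups. The lung markers were bright and close in both groups: the log2 intensity of Sftpc, a surfactant protein gene of alveolar type 2 cells, was 18.72 at D3 and 18.71 at D28, and that of Scgb1a1, of airway secretory cells, was 17.41 and 17.47. Ager, Sftpb and Cdh5 were likewise not called.

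Of 25238 genes tested, 152 (0.602%) differed between D28 and D3 at an adjusted p under 0.05 and at least 1.5-fold, with 92 (0.365%) higher and 60 (0.238%) lower at D28. Of the 152, 140 (83 higher and 57 lower) were well above background on at least 3 arrays of a group, and 12 were dim in both groups. For some of these 12 the 1.5-fold size is not secured. Set from the lowest signal well above background, the rise was at least 1.09-fold for Olr409 and at least 1.47-fold for Olr820. The changes were mostly small: 92 of the 152 were under 2-fold, and 16, some of them dim genes, were at least 2 on the log2 scale. In 118 of the 152 all D28 rats lay on one side of all D3 rats, as 589 (2.33%) of all genes did. The direction was the same on each of the 4 slides for 144 of the 152. These genes were called on the same arrays, which favours such agreement, and the share over all genes was not counted. With the slide as a block 249 genes were called, 136 higher and 113 lower, and 149 of the 152 were among them with the same sign. With the 10 arrays normalized and fitted on their own, 85 genes were called. Of 30 called genes with more than 1 probe, 17 had every probe called in the same direction and 4 had a probe of opposite sign. In bulk tissue, fewer cells of a type and less RNA per cell cannot be told apart.

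Of the 27 genes of the core clock list, 24 were tested. Of these 24, 8 fell and 4 rose, beside 0.238% and 0.365% of all genes tested. The other 3 of the 27 were not matched to a name in the array files. Ciart is named RGD1566380 in the array files and was identified through its transcript accession. The 24 genes, of which 12 were not called, had a median log2 change of -0.05, and the median of all genes tested was -0.01. The groups did not overlap for 11 of the 12 called genes, Cry1 being the exception, beside 2.33% of all genes tested. The comparison was taken up for its clock genes and the 12 were called on these same arrays, so this count is a description.

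**Figure D1:**
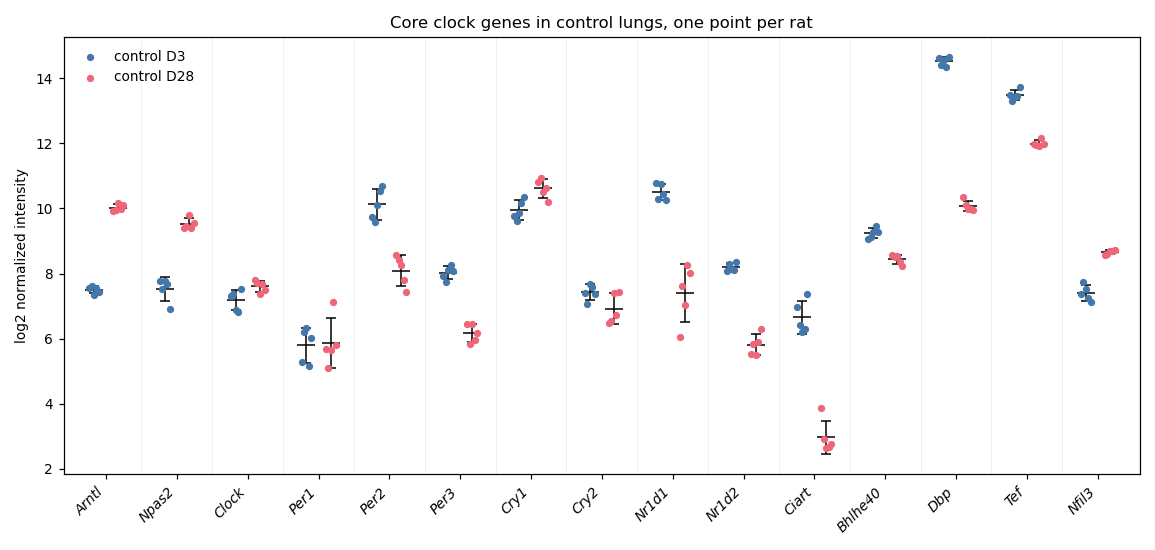
Log2 normalized intensity (vertical axis) of 15 clock genes (horizontal axis) in control lungs at D3 (blue) and D28 (red), with 1 point per rat and the mean ± SD of 5 rats in black. Arntl, Npas2 and Nfil3 lie higher at D28, Dbp, Ciart, the Nr1d genes, Per2 and Per3 lie lower, and the groups of Clock, Per1, Cry1 and Cry2 overlap.

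Among the activators, Arntl rose most. Its log2 intensity was 7.57, 7.62, 7.35, 7.55 and 7.43 in the D3 rats and 9.91, 9.95, 10.18, 9.98 and 10.10 in the D28 rats. The 2 groups were each tight (SD 0.11 in both, n = 5) and far apart. The log2 change was 2.52 ± 0.17 (SE), or 5.75-fold higher at D28 (adjusted p = 1.94e-14), and it lay between 2.39 and 2.75 within the 4 slides. Npas2, a paralogue of Clock that also pairs with BMAL1, rose from 7.53 ± 0.36 (SD, n = 5) to 9.52 ± 0.17, a log2 change of 1.99 ± 0.23 (SE, adjusted p = 4.45e-08). The Npas2 probes disagreed: 1 rose by 2.53 (adjusted p = 1.29e-12), and the other stood at 7.01 and 7.04 with no call (log2 change 0.03), so the value of the gene is a mean over unlike probes. Clock itself was 7.19 ± 0.31 at D3 and 7.61 ± 0.17 at D28 and was not called (log2 change 0.42, adjusted p = 0.149). The groups overlapped for Clock, and with the slide as a block its adjusted p was 0.00388 at a change still under 1.5-fold. Arntl2 and the ROR genes Rora and Rorb, which encode activators of Arntl, were not called, and Rorb was well above background on 1 of the 10 arrays.

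Among the repressors of the pair, Per2, Per3, both REV-ERB genes, Ciart and Bhlhe40 fell, Cry1 rose, and Per1, Cry2 and Bhlhe41 were not called. Per2 was 9.74, 9.57, 10.10, 10.54 and 10.68 at D3 and 8.56, 8.41, 8.26, 7.80 and 7.42 at D28. Every D28 rat lay below every D3 rat (log2 change -2.03 ± 0.21, adjusted p = 4.74e-09). Per3 fell from 8.02 ± 0.20 to 6.17 ± 0.28 (log2 change -1.86 ± 0.16, adjusted p = 1.76e-11). Per1, which also responds to glucocorticoids, was spread over 5.16 to 6.32 at D3 and 5.08 to 7.13 at D28, with no call (log2 change 0.07). Cry1, which encodes the late-acting cryptochrome, rose modestly, from 9.96 ± 0.31 to 10.62 ± 0.29 (log2 change 0.66 ± 0.13, adjusted p = 0.00177). The Cry1 groups overlapped, and its call was lost without replicate 2 of D3 without replicate 2 of D28, and when the 10 arrays were fitted on their own (its log2 change lay between 0.57 and 0.77 over the 10 leave-one-out fits). Cry2 was 7.43 ± 0.24 and 6.92 ± 0.47 (log2 change -0.51, adjusted p = 0.267).

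The REV-ERB genes fell further. Nr1d1 was 10.77, 10.30, 10.75, 10.45 and 10.27 in the D3 rats and 6.05, 7.61, 7.02, 8.26 and 8.03 in the D28 rats. The D28 rats were all lower but far more spread than the D3 rats, with SDs of 0.89 and 0.24. The log2 change was -3.12 ± 0.33 (8.68-fold lower, adjusted p = 7.06e-09) and lay between -4.24 and -2.72 within slides. Nr1d2 fell from 8.20 ± 0.12 to 5.81 ± 0.32 (log2 change -2.38 ± 0.18, adjusted p = 4.96e-13). Ciart, which encodes a repressor of the BMAL1 pair, was 6.96, 6.41, 6.22, 6.30 and 7.38 at D3 and 3.87, 2.92, 2.63, 2.65 and 2.75 at D28. It was well above background on all 5 D3 arrays and on none of the 5 D28 arrays, so its fall is a bound: at least 7.80-fold lower at D28 (adjusted p = 2.15e-06). Bhlhe40 (DEC1), a repressor that binds the same elements as the pair, fell from 9.24 ± 0.15 to 8.44 ± 0.14 (log2 change -0.80 ± 0.10, adjusted p = 1.79e-07). Its paralogue Bhlhe41 was 7.50 ± 0.14 and 7.64 ± 0.14 and was not called.

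The largest change of all belonged to Dbp, which encodes an activator that binds D-box elements in clock output genes. Dbp was 14.62, 14.40, 14.55, 14.36 and 14.65 in the D3 rats and 10.35, 10.12, 9.98, 9.98 and 9.96 in the D28 rats. The groups were more than 4 log2 units apart, with SDs of 0.13 and 0.16. The log2 change was -4.44 ± 0.24, or 21.7-fold lower at D28 (adjusted p = 1.96e-17), and lay between -4.58 and -4.18 within slides. Dbp was measured by 3 probes of 60 bases, shown because they read separate stretches of chromosome 1 on the plus strand of the rn4 build and gave close log2 changes of -4.47 (chr1:96178064-96178123), -4.34 (chr1:96178148-96178207) and -4.50 (chr1:96178423-96178482), in that order:
Dbp probe, most 5′: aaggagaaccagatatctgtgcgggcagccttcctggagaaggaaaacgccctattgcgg
Dbp probe, middle: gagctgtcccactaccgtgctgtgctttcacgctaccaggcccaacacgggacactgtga
Dbp probe, most 3′: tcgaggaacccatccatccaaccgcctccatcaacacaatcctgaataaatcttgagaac

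Tef, which encodes a second D-box activator of the same family, fell from 13.48 ± 0.15 to 11.99 ± 0.10 (log2 change -1.49 ± 0.11, adjusted p = 3.76e-13). Nfil3 (E4BP4), which represses through the D-box, moved the other way, from 7.37, 7.75, 7.54, 7.26 and 7.13 at D3 to 8.57, 8.59, 8.69, 8.70 and 8.72 at D28. Its D28 values were the tightest of the called clock genes, with an SD of 0.07, and its log2 change was 1.25 ± 0.12 (adjusted p = 3.38e-10). The clock kinases Csnk1d and Csnk1e and the ubiquitin ligase genes Btrc and Fbxw11, which set the stability of the PER proteins, had log2 changes from -0.09 to 0.08 and were not called.

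Promoter windows of 300 bases, from 250 bases before to 50 after the RefSeq start in build GRCr8, were searched on both strands for the E-box CACGTG (bound by the BMAL1 pair), the D-box (TTATGTAA or TTACGTAA, bound by DBP, TEF and NFIL3) and the RORE core TAGGTCA (bound by the ROR and REV-ERB proteins). The table holds windows for 14541 of the 25238 genes tested, of which 7.98% have this E-box, 0.853% the D-box and 2.01% the RORE core. Of the 8 core clock genes that fell, 3 have the E-box (Ciart, Tef and Bhlhe40) and 1 the D-box (Per2). Of the 3 core clock genes that rose and have a window, Arntl has the RORE core. Beyond the clock list, 3 of 35 genes that fell and 7 of 61 that rose have the E-box. The windows of Dbp, Nr1d1, Nr1d2 and Per3 hold none of these letters, which says nothing of other sites outside 300 bases. The windows of 4 clock genes with a match, and of Epm2a, the called gene outside the clock list with the largest fall and an E-box, are shown with matches in capitals:
Ciart, chr2:186112197-186112496, minus strand: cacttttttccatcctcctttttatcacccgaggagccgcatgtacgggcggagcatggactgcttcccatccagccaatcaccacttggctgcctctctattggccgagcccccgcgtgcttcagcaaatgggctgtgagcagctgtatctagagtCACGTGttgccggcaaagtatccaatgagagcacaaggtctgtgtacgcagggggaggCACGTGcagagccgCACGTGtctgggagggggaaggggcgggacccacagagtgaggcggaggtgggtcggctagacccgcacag
Tef, chr7:115206577-115206876, plus strand: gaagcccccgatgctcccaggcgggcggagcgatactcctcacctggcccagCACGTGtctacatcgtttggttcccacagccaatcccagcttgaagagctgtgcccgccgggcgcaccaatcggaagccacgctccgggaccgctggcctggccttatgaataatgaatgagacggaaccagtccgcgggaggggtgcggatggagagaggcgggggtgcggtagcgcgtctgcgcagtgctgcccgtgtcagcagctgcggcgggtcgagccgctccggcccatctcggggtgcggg
Per2, chr9:99496944-99497243, minus strand: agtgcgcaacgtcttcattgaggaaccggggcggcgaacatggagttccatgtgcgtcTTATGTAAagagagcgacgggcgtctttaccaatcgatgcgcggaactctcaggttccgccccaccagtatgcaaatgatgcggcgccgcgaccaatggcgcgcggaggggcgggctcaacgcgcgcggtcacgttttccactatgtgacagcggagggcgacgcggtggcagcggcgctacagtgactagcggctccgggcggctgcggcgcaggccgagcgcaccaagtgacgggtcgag
Arntl (Bmal1), chr1:176766078-176766377, plus strand: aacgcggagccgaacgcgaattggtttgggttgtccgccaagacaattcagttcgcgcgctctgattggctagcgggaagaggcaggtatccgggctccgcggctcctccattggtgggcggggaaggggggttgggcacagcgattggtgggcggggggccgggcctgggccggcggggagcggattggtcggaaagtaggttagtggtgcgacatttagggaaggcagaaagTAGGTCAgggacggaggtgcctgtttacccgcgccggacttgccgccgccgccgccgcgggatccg
Epm2a, chr1:7547119-7547418, plus strand: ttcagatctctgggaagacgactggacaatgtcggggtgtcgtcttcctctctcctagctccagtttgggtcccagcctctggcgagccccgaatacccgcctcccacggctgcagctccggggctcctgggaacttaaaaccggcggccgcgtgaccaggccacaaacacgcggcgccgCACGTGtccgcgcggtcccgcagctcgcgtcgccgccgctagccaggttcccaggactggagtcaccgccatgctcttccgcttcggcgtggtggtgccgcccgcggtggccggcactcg

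The Ciart window holds 3 E-boxes, beginning at positions -93, -35 and -21 relative to the annotated start. The RORE core of Arntl begins at -16, the D-box of Per2 at -192, and the E-boxes of Tef and Epm2a at -198 and -70. A match is a description of letters and was not tested for binding in these lungs.

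Of 22 genes in the clock output list, which carry clock rhythms to other processes, 2 fell and 1 rose, with a median log2 change of -0.01, beside 0.238% and 0.365% of all genes tested. Tspan4, a tetraspanin gene, was 11.09, 10.80, 11.81, 11.83 and 11.24 at D3 and 10.04, 10.02, 10.69, 9.96 and 10.73 at D28 (log2 change -1.07 ± 0.22, adjusted p = 0.00232). The D28 rats lay just below the D3 rats, and within each slide the difference was between -1.14 and -0.98, though the call was lost when the 10 arrays were fitted on their own. Wee1, which encodes a kinase that delays mitosis, fell from 10.84 ± 0.20 to 10.05 ± 0.11 (log2 change -0.80 ± 0.10, adjusted p = 2.69e-07). Dtx4 rose (log2 change 0.66, adjusted p = 0.00406). The other 19, among them Nampt (log2 change -0.23), Por (-0.19) and Usp2 (-0.10), were not called.

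Outside the clock lists, the largest falls were in genes of varied function. Epm2a, which encodes the glycogen phosphatase laforin, was 7.45, 7.40, 7.59, 7.05 and 7.81 at D3 and 4.94, 4.38, 3.80, 4.83 and 5.19 at D28 (log2 change -2.83 ± 0.29, adjusted p = 2.74e-09). It was well above background on 1 of the 5 D28 arrays, against all 5 at D3. Rasd2 (Rhes), which encodes a small GTPase, fell from 10.83 ± 0.19 to 8.83 ± 0.33 (4.00-fold lower, adjusted p = 1.01e-11), and Ccdc116, a coiled-coil gene, from 8.82 ± 0.48 to 6.71 ± 0.55 (log2 change -2.11 ± 0.38, adjusted p = 0.00038). Both pairs of groups were apart in all rats. Prtg (protogenin, a cell surface protein of the immunoglobulin superfamily) fell from 4.62 ± 0.32 to 3.17 ± 0.49 (log2 change -1.45 ± 0.29, adjusted p = 0.00196), near the floor of the arrays. Of its 2 probes, 1 carried the fall (log2 change -1.92) and the other, at background, did not (0.08).

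Irg1 (Acod1), which encodes the itaconate-producing enzyme of activated macrophages, was 4.81, 4.23, 4.60, 4.67 and 4.96 at D3 and 2.63, 2.60, 2.47, 2.63 and 3.57 at D28. No D28 array held it well above background, and 3 of the D3 arrays did, so its fall was at least 1.89-fold (adjusted p = 5.07e-05). Olr1148, an olfactory receptor gene, was above background on 3 D3 arrays and on no D28 array and was at least 1.56-fold lower (adjusted p = 0.00512), with overlapping groups. Gpr84, a receptor for medium-chain fatty acids on myeloid cells, fell from 4.91 ± 0.36 to 3.89 ± 0.19 (log2 change -1.01 ± 0.18, adjusted p = 0.000272). The calls of Irg1, Prtg, Olr1148 and Gpr84, all dim genes, were lost with normexp background correction and in the series matrix values.

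Among the genes that rose, Eln, which encodes elastin, the elastic fibre protein of alveolar walls and vessels, stood close to Arntl in size. Eln was 10.69, 11.01, 10.03, 10.15 and 10.80 at D3 and 12.85, 13.02, 12.92, 12.87 and 12.56 at D28. All D28 rats lay above all D3 rats (log2 change 2.31 ± 0.20, 4.94-fold higher, adjusted p = 2.13e-11), and within slides the difference lay between 1.94 and 2.77. Both Eln probes moved alike, by 2.24 and 2.32. A pair of heparan sulfate sulfotransferase genes rose with it: Hs3st6 from 10.58 ± 0.29 to 12.65 ± 0.20 (log2 change 2.08 ± 0.17, adjusted p = 1.73e-11), and Hs3st3a1 from 8.14 ± 0.13 to 9.60 ± 0.14 (log2 change 1.46 ± 0.12, adjusted p = 1.49e-11). Spon2, which encodes the secreted matrix protein spondin 2, rose from 8.90 ± 0.46 to 10.62 ± 0.20 (log2 change 1.72 ± 0.19, adjusted p = 3.45e-08), and Fibin from 9.09 ± 0.15 to 10.72 ± 0.26 (log2 change 1.63 ± 0.13, adjusted p = 2.88e-12). The groups did not overlap for these 5 genes. Hs3st3a1 had a second, dimmer probe without a call and of opposite sign (log2 change -0.46, from 5.04 to 4.57). Clspn, which encodes the replication checkpoint adaptor claspin, rose from 4.49 ± 0.25 to 5.97 ± 0.18 (log2 change 1.48, adjusted p = 8.46e-05). Acsm5, which encodes a medium-chain acyl-CoA synthetase, rose from 10.14 ± 0.54 to 11.49 ± 0.38 (log2 change 1.34, adjusted p = 0.000105). The call of Clspn was lost with normexp background correction and that of Acsm5 when the 10 arrays were fitted on their own.

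A pair of the large increases rested on few rats. Olr778, an olfactory receptor gene, was 2.80, 3.31, 2.99, 2.42 and 2.88 at D3 and 2.58, 4.96, 9.42, 8.12 and 3.87 at D28. The D28 rats ran from background to bright, within 1 slide the difference was -0.51, and the call (at least 4.81-fold higher, adjusted p = 0.0384) was lost in 7 of the 10 leave-one-out fits, among them those without replicate 3 of D28 and without replicate 4 of D28. Eme1, which encodes a DNA junction endonuclease subunit, was between 2.37 and 3.49 at D3 and was 7.78, 3.14, 5.26, 6.60 and 3.80 at D28. It was at least 3.34-fold higher (adjusted p = 0.0239), with overlapping groups, and the call was lost in 5 of the 10 leave-one-out fits (without replicates 1 and 4 of D3 and without replicates 1, 3 and 4 of D28).

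**Figure D2:**
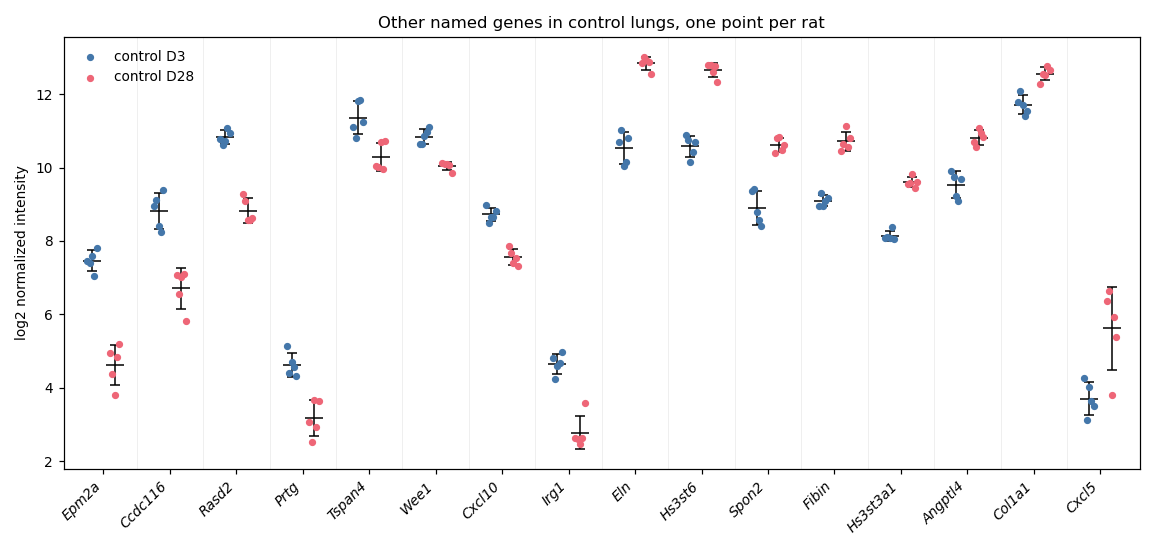
Log2 normalized intensity (vertical axis) of 16 called genes outside the core clock list (horizontal axis) in control lungs at D3 (blue) and D28 (red), with 1 point per rat and the mean ± SD of 5 rats in black. The first 8 genes lie lower at D28 and the last 8 higher, and Cxcl5 alone overlaps.

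Of 36 extracellular matrix genes tested, 2 rose and none fell, beside 0.365% of all genes higher, with a median log2 change of 0.19 beside -0.01 for all genes. Besides Eln, Col1a1, the alpha 1 chain of type I collagen, rose from 11.71 ± 0.25 to 12.56 ± 0.18 (log2 change 0.85 ± 0.12, adjusted p = 6.45e-06), by 0.99 in 1 probe and by 0.49 without a call in the other. In all, 31 of the 36 had a positive log2 change, beside 11666 (46.2%) of the 25238 genes tested, and 10 were higher with an adjusted p under 0.05 when no fold limit was set, beside 194 (0.769%) of all genes. The elastin crosslinking enzyme genes Lox (log2 change 0.54, adjusted p = 0.00843) and Loxl1 (0.53, adjusted p = 0.0014) were among these and stayed under 1.5-fold. The smooth muscle list had no call, and its 8 members had a median of 0.12.

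Cell cycle genes leaned the other way. Of 36 tested, 1 was called lower, beside 0.238% of all genes. This gene, Mcm5, a subunit of the replicative helicase, fell from 8.18 ± 0.11 to 7.42 ± 0.18 (log2 change -0.75 ± 0.13, adjusted p = 0.000343), a call that was lost with normexp background correction and in the series matrix values. The list had a median log2 change of -0.35, 35 of its 36 members had a negative change, beside 13572 (53.8%) of the 25238 genes tested, and 11 were lower with an adjusted p under 0.05 and no fold limit, beside 181 (0.717%) of all genes. Mki67 (log2 change -0.37, adjusted p = 0.0231), Cdk1 (-0.36, adjusted p = 0.0324) and E2f1 (-0.36, adjusted p = 0.000234) were among these. Averaged over the list and centred on the 10 arrays, the D3 rats lay between 0.10 and 0.24 and the D28 rats between -0.33 and 0.01, so the groups did not overlap. The groups did not overlap either for the core clock, extracellular matrix and interferon lists. For matrix genes the D3 rats lay between -0.22 and -0.04 and the D28 rats between 0.004 and 0.21.

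Of 21 genes of the PPAR and fat oxidation list, 3 rose, beside 0.365% of all genes, and none fell (median log2 change 0.08). Angptl4, which encodes an inhibitor of lipoprotein lipase and also responds to glucocorticoids, rose from 9.54 ± 0.36 to 10.82 ± 0.20 (log2 change 1.28 ± 0.18, adjusted p = 6.43e-06). Acot1, an acyl-CoA thioesterase gene, rose from 7.66 ± 0.38 to 8.73 ± 0.50 (log2 change 1.08 ± 0.25, adjusted p = 0.0109). With the 10 arrays fitted on their own and the slide as a block, the calls of Angptl4 and Acot1 were lost, as was that of Col1a1 in the matrix list. The other 18, among them Cpt1a (log2 change 0.24), were not called. In the list of 8 fat genes, 1 was called, beside 0.365% of all genes called higher. This was Lipe, which encodes hormone-sensitive lipase (log2 change 0.67, adjusted p = 0.0115). The calls of Acot1 without replicate 4 of D28, and of Lipe without replicate 3 of D28, were lost. Both calls were also lost when the 10 arrays were fitted on their own, with or without the slide as a block. That of Lipe was lost as well with normexp background correction and in the series matrix values. The 23 glucocorticoid responsive genes had a median of 0.16, and Angptl4 was the 1 member called, beside 0.365% of all genes called higher.

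Inflammatory genes moved in both directions. Of 32 chemokine ligands, 2 rose and 2 fell (median log2 change 0.01), beside 0.602% of all genes called. Cxcl10, an interferon-induced T cell chemoattractant, was 8.99, 8.50, 8.66, 8.66 and 8.80 at D3 and 7.85, 7.68, 7.39, 7.54 and 7.32 at D28, a log2 change of -1.16 ± 0.29 (adjusted p = 0.0208). These groups did not overlap, yet the adjusted p, which uses the spread of all 10 groups, passed its limit narrowly and was lost without replicate 1 of D3, replicate 3 of D28 or replicate 5 of D28. Cxcl5 (Cxcl6 in RefSeq), a neutrophil chemoattractant, was 4.26, 3.12, 4.02, 3.64 and 3.49 at D3 and 6.35, 6.62, 3.79, 5.93 and 5.38 at D28 (log2 change 1.91 ± 0.35, adjusted p = 0.000535). One D28 rat lay within the D3 range, and the gene was above background on 2 D3 and 4 D28 arrays, and its call was lost when the 10 arrays were fitted on their own. Of 18 acute phase and cytokine genes, 2 rose, beside 0.365% of all genes. Lcn2 (lipocalin 2) rose by 0.81 ± 0.21 (adjusted p = 0.0269) and Fgg (fibrinogen gamma chain) by 0.64 ± 0.08 (adjusted p = 1.13e-07). In the interferon list Cxcl10 was the 1 call of 25 members, beside 0.238% of all genes lower. The list median was -0.19, and 21 members had a negative change, beside 53.8% of all genes. With an adjusted p under 0.05 and no fold limit, 3 were lower, beside 0.717% of all genes. Averaged over this list and centred on the 10 arrays, the D3 rats lay between 0.04 and 0.30. The D28 rats lay between -0.28 and -0.02, so the groups did not overlap. The call of Lcn2 was lost in 6 of the 10 leave-one-out fits and that of Fgg without replicate 5 of D3.

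Of 27 xenobiotic metabolism genes, 1 rose and 1 fell, beside 0.365% and 0.238% of all genes. Cyp4b1, a cytochrome P450 gene of club cells, rose from 12.70 ± 0.19 to 13.62 ± 0.18 (log2 change 0.92 ± 0.11, adjusted p = 3.76e-07). Cyp2a3, a nasal and lung P450 gene, fell from 9.57 ± 0.38 to 8.71 ± 0.31 (log2 change -0.86 ± 0.22, adjusted p = 0.0267), with overlapping groups and a call that was lost in 6 of the 10 leave-one-out fits. Of 10 red blood cell markers, 1, Alas2, was called higher (log2 change 0.62, adjusted p = 0.00975), and 9 had a positive change. Hbb-bs (LOC689064 in the array files), a beta-globin gene outside this list, was also called higher (log2 change 0.62). Of 28 immediate early genes, 1, Gadd45g, was called higher (log2 change 0.64, adjusted p = 0.0409). Of the 28, 22 had a negative change, and the list median was -0.16. Of all genes tested, 0.365% were called higher, 46.2% had a positive change and 53.8% a negative one. The call of Gadd45g was lost in 6 of the 10 leave-one-out fits and that of Alas2 without replicate 1 of D3 or replicate 5 of D28.

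The lists of cell types had few calls. None of the members was called for alveolar type 1 and 2 cells, airway secretory and ciliated cells, endothelium, alveolar macrophages, monocytes and dendritic cells, neutrophils, T cells, NK cells, B cells, mast cells, cardiac and skeletal muscle or mesothelium. The largest list medians among these were 0.41 for the 10 cardiac muscle markers and -0.25 for the 11 B and plasma cell markers. All 12 NK and cytotoxic markers had a negative log2 change, with a median of -0.23 and no call, beside 13572 of the 25238 genes tested with a negative change. The cardiac list, centred on the 10 arrays, ran from -0.50 to 0.12 at D3 and from -0.07 to 0.33 at D28, and the red blood cell list from -0.30 to 0.00 and from -0.02 to 0.25. Their part in the changes of other genes was not tested.

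**Figure D3:**
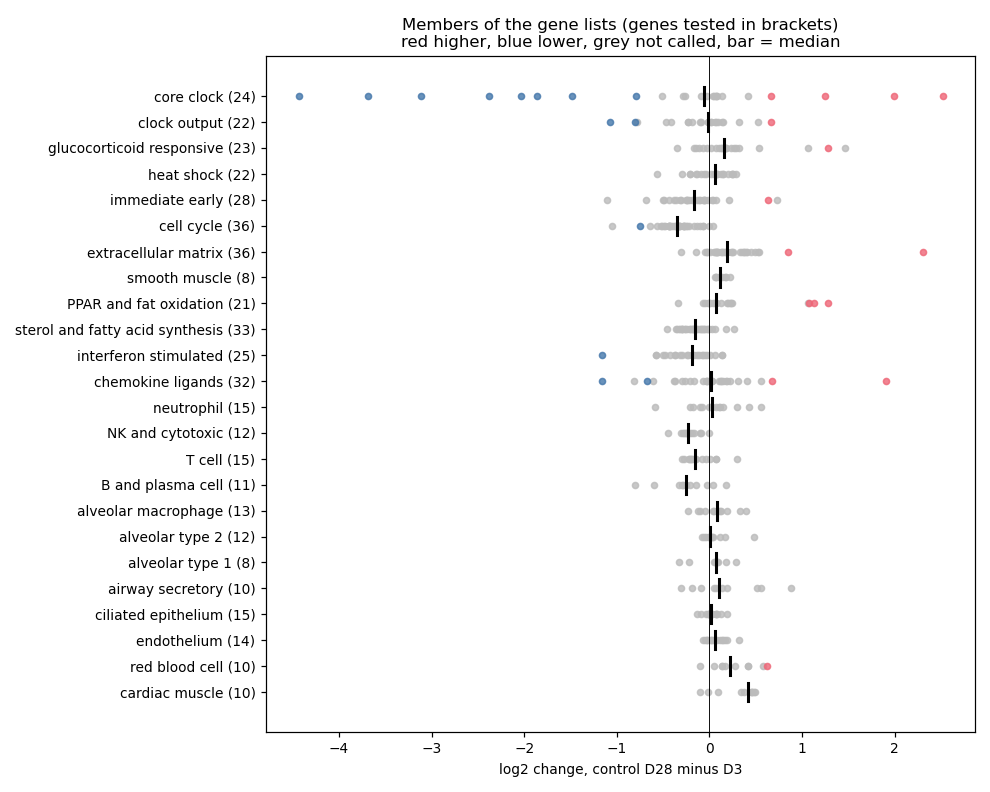
Log2 change from D3 to D28 in control lungs (horizontal axis) of each tested member of 24 gene lists (vertical axis, number tested in brackets), with called genes in red (higher) or blue (lower), genes that were not called in grey, and the list median as a black bar. The core clock spans -4.44 to 2.52, while the medians of the cell type lists in the lower part lie between -0.25 and 0.41.

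The control groups of the other days place D3 and D28 in the series. The mean log2 intensity of Dbp was 14.56 ± 0.18 (SD, n = 5) right after the inhalation period (D0), 14.52 at D3, 10.08 at D28, 10.14 ± 0.21 at 90 days (D90) and 10.07 ± 0.19 at 180 days (D180). Dbp lay at 2 levels, with D0 and D3 on one and the 3 later days on the other, and neighbours within a level differed by less than their SD. Arntl stood at 7.13 ± 0.12, 7.50, 10.02, 10.13 ± 0.12 and 10.22 ± 0.10 on these days, and Ciart at 6.93 ± 0.34, 6.65, 2.96, 2.79 ± 0.35 and 2.72 ± 0.11. Per2 stood at 11.06 ± 0.14, 10.13, 8.09, 7.87 ± 0.14 and 8.12 ± 0.16. Arntl and Per2 also differed between D0 and D3, by more than the SD at D0. Eln was highest at D28 and lower at the later days, at 10.29 ± 0.23, 10.54, 12.84, 12.31 ± 0.13 and 12.13 ± 0.08. For Irg1, D3 was the highest control group (2.96 ± 0.57, 4.65, 2.78, 3.63 ± 0.30 and 3.44 ± 0.73). The same held for Mcm5 (7.02, 8.18 and 7.42 at D0, D3 and D28), Cxcl10 (7.39, 8.72 and 7.56) and Gpr84 (4.14, 4.91 and 3.89). For Alas2, D3 was the lowest (12.62, 11.92 and 12.54). In these genes the D28 mean lay nearer to that of D0 than to that of D3. The D0 arrays share the 4 slides of D3 and D28, whereas D90 and D180 lie on 3 other slides, so levels at the later days are given as a description.

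**Figure D4:**
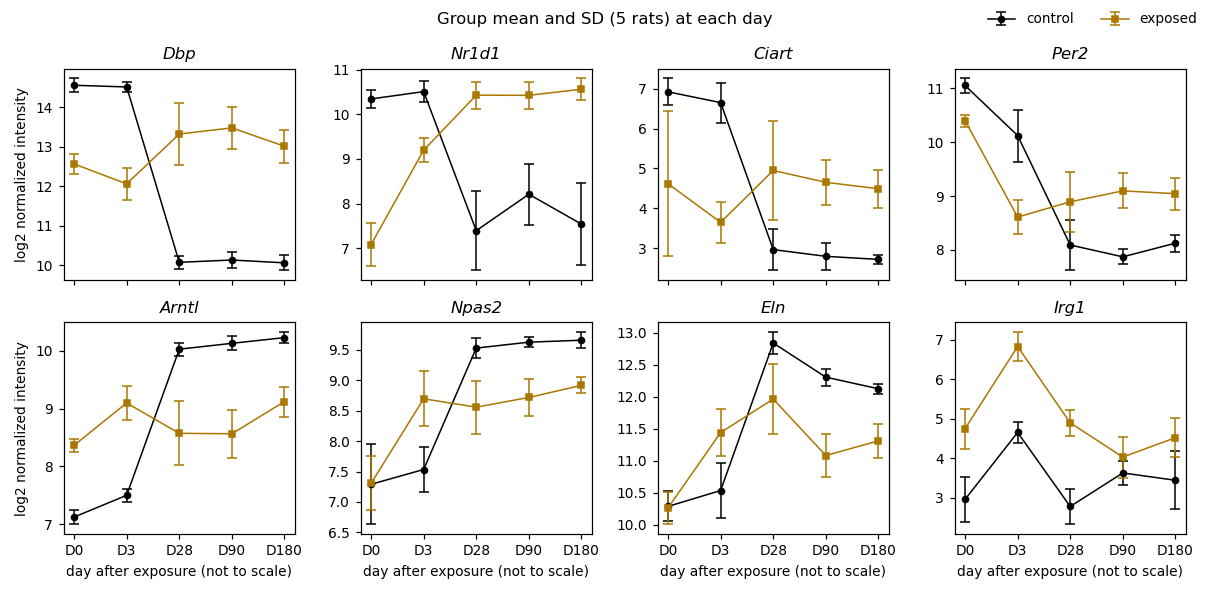
Mean ± SD (5 rats) of log2 normalized intensity (vertical axes) at D0, D3, D28, D90 and D180 (horizontal axes, not to scale) for 8 genes in control rats (black circles) and exposed rats (brown squares). In control rats the widest gap between neighbouring days lies between D3 and D28 for all 8 genes, for example from 14.52 to 10.08 for Dbp. For Per2, Eln and Irg1 levels also differ within the earlier or the later days.

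Exposed rats of the same days were measured on arrays that the control comparison does not use. Their slides were less balanced. Replicate 1 of exposed D3 lay on a slide of the D90 and D180 arrays, and not every slide of the control comparison held an exposed D28 array. Between D28 and D3, 416 genes (1.65%) were called in exposed rats, 182 (0.721%) higher and 234 (0.927%) lower. Of the 92 genes that rose in control rats, 54 had a positive log2 change in exposed rats, and of the 60 that fell, 26 had a negative one. Of the 152 genes called in control rats, 13 were called in the same direction in exposed rats, which is 8.55% of the control list and 3.12% of the exposed list, and 11 were called in the opposite direction. With only the arrays compared these counts were 6 and 4, and 0 and 1 with the slide as a block added, while with the slide as a block on all arrays they were 21 and 18. The 13 became 5 with normexp background correction and 5 in the series matrix values. The remaining 128 were not called in exposed rats. The difference between the changes in exposed and control rats was itself called for 308 genes (1.22%), and for 78 of the 152, with 74 not called. This difference subtracts the control change on which the 152 were chosen, so that choice favours the opposite sign, which 77 of the 78 had. The exposed values are given beside the difference. Of the lists, cell cycle genes had a median of -0.49 in exposed rats with 10 called lower and no difference called, and matrix genes a median of 0.31 with none called and 1 difference called.

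All 12 called clock genes were among those 78. In exposed rats Dbp was 12.06 ± 0.41 at D3 and 13.32 ± 0.78 at D28, a log2 change of 1.26 ± 0.24 (adjusted p = 0.000425), and the difference from the control change was 5.70 ± 0.34 (adjusted p = 6.88e-16). Nr1d1 rose by 1.23 ± 0.33 in exposed rats (adjusted p = 0.0158), Nr1d2 by 0.71 (adjusted p = 0.00909) and Tef by 0.77 (adjusted p = 3.82e-06), all of which fell in control rats. Arntl changed by -0.52 ± 0.17 in exposed rats without a call (adjusted p = 0.0562), and the difference from the control change was -3.05 ± 0.24 (adjusted p = 2.98e-12). Epm2a, Ccdc116, Rasd2, Hs3st6 and Fibin also differed, by 3.54, 3.81, 2.23, -2.57 and -1.89. Cxcl5 fell in exposed rats (log2 change -2.04 ± 0.35, adjusted p = 9.91e-05) and rose in control rats, a difference of -3.95. Of the 6 genes named for the size of this difference, Ccl12, a monocyte chemoattractant, was the one not called in control rats (log2 change -0.37) and fell by 3.61 on the log2 scale in exposed rats.

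Among the 13 genes called in the same direction in both kinds of rats, Irg1, Gpr84 and Cxcl10 fell, and Acot1 and Ephx3 rose. Irg1, at least 1.89-fold lower at D28 in control rats, went from a mean of 6.83 to 4.90 in exposed rats, and the sizes cannot be compared because the control value is a bound. Gpr84 changed by -1.01 and -0.86, and Cxcl10 by -1.16 and -2.70. The difference for Cxcl10 was called (-1.53, adjusted p = 0.0302). Acot1 rose by 1.08 and 2.01, and Ephx3, an epoxide hydrolase gene near background, was at least 1.83-fold higher in control rats and was also called in exposed rats. The control call of Ephx3 was lost with normexp background correction, in the series matrix values and when the 10 arrays were fitted on their own. Another 7 were Adamtsl2, Arsi, Asf1b, Fam83e, Orc1, Xcl1 and Zp2. Of these, the chemokine gene Xcl1 changed by -0.68 in control and -1.20 in exposed rats, and Arsi by 1.13 and 0.62.

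Some of the 152 genes also differed between exposed and control rats at D90 and D180, on arrays of other rats (comparisons added after the values were seen). At D90, 94 genes (0.372%) were called between exposed and control rats, and 34 of the 152 were among them with the opposite sign of their D28 against D3 change. These 34 make up 22.4% of the control list and 36.2% of the D90 list, and 1 further gene, Acot1, had the same sign. At D180, 81 genes (0.321%) were called, and 25 of the 152 were among them with the opposite sign (16.4% and 30.9% of the lists), again with Acot1 alone in the same direction. In all, 19 genes were called with the opposite sign at both days. They were the clock genes Dbp, Nr1d1, Nr1d2, Per2, Per3, Tef, Arntl, Cry1 and Nfil3, and beyond the clock Eln, Epm2a, Rasd2, Hs3st6, Hs3st3a1, Fibin, Adamts9, Car5a, Ccdc109b and 1 gene with a transcript identifier. For Eln, for example, exposed rats lay 1.22 below control rats on the log2 scale at D90 (log2 difference -1.22, adjusted p = 0.000108) and less far below at D180 (-0.81, adjusted p = 0.0272). For Dbp the log2 differences were 3.34 and 2.95. Irg1, Cxcl5 and Mcm5 were not called at either day.

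**Figure D5:**
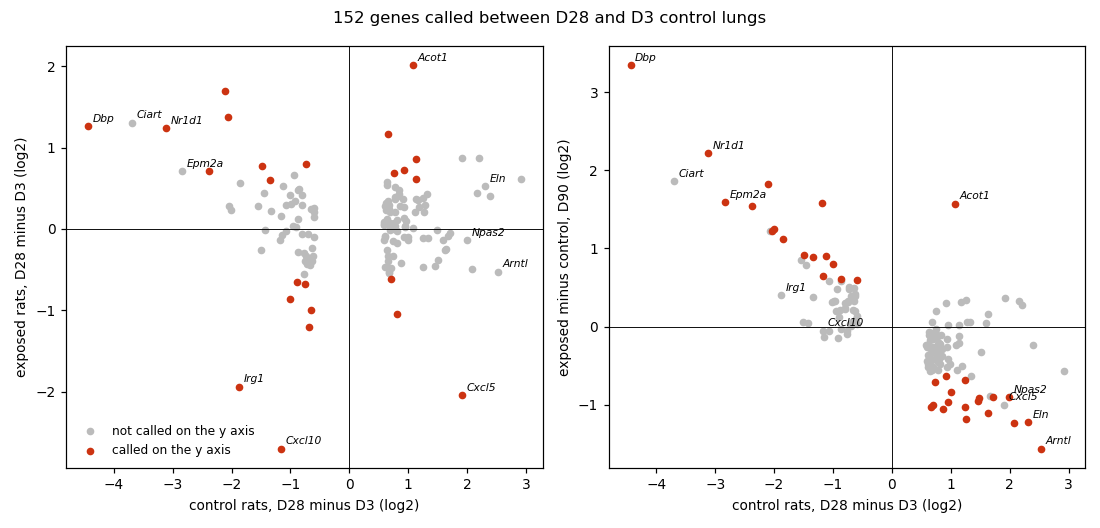
Log2 change from D3 to D28 in control rats (horizontal axes) of the 152 called genes against the change in exposed rats (left, vertical axis) and against the difference of exposed and control rats at D90 (right, vertical axis), with genes called on the vertical axis in red. On the left 13 of the red genes lie in the quadrants of equal sign, and on the right 34 of 35 lie in those of opposite sign.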

How the data were processed

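Total RNA of 50 rats was hybridised to one-colour Agilent arrays, 1 per rat. The deposited array files hold the fluorescence intensity of each spot, in linear units, written per the file headers by release 11.0.1.1 of Feature Extraction, Agilent's software. Its processed signal, corrected there for background and spatial trend, was used. The authors' own pipeline used negative controls as a filter, quantile normalization, a correction for batches they do not name, and limma. Groups came from the labels. The series matrix, which holds intensity values of 58753 spots, served as an alternative.

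Control spots and spots marked as outliers or not uniform were left out. Spots were averaged per probe (30367) and probes per gene name (25885) on the linear scale, then log2 transformed and quantile normalized over the 50 arrays. The test took in 25238 genes whose signal, on 5 arrays or more, passed the level below which 95% of that array's negative control spots lay. Names of 84 spots in 22 files altered by a spreadsheet were restored from the other files. No gene spot of the 10 compared arrays was saturated. A group mean per group was fitted to the 50 arrays with limma 3.58.1 in R 4.3.3, and two-sided p-values were adjusted by the Benjamini-Hochberg method. Genes were called at an adjusted p under 0.05 and at least 1.5-fold. Bounds ("at least") replace the fold where no array of a group was well above background, set from the lowest such signal on each array. P-values measure the spread between rats, and the number of arrays limits the precision.

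Named genes were the core clock list, the 12 largest increases and 12 largest decreases among called genes with a symbol and above background, up to 2 called members of each other list, and, under the same limits on symbol and background, the 6 largest differences from exposed rats and 6 genes called in both. The members, lists and comparisons were chosen with earlier results of these data known. Lists were written from general knowledge, and 2 tested members of the named lists are not reported here by name. The RefSeq table for GRCr8 gave current names, the promoters and no gene positions, and probe positions are those of rn4 in the files. The script was tested on simulated data. Alternatives were the slide or the replicate number as a block, 75th percentile scaling, normexp background correction (offset 50), the series matrix, the brightest probe, other filters, other limits, and leaving out each array. Of 116 groups of values checked, 8 held a rat apart from the other 4.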

Additional observations from a re-analysis of the deposited data

Results flagged for a closer look

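In 8 of 116 groups of 5 values of named genes, 1 rat stood apart from the other 4, with a gap to its neighbour above 0.71 of the range of the group. Chance gives about 1 such group in 20. In the D28 control group, replicate 5 had a log2 intensity of 2.32 for Rorb (others 3.80 to 4.08), 3.57 for Irg1 (2.47 to 2.63) and 9.85 for Wee1 (10.07 to 10.11). Replicate 1 of D28 stood at 3.87 for Ciart (2.63 to 2.92), and replicate 4 of D28 at 12.16 for Tef (11.91 to 11.97). In the D3 control group, replicate 1 stood at 8.36 for Mcm5 (8.09 to 8.16), replicate 2 at 4.92 for Clspn (4.27 to 4.45) and replicate 4 at 8.37 for Hs3st3a1 (8.04 to 8.10). Rorb, Irg1 and Ciart were not well above background on any D28 array.

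The change from D3 to D28 differed between exposed and control rats for 308 genes, by the interaction term of the limma fit. Values are the change in exposed rats minus the change in control rats, on the log2 scale. They subtract the control change, so in genes chosen for a large control change the opposite sign is favoured by that choice. Among the clock genes that fell in control rats the difference was positive for Per2 (2.32), Per3 (2.42), Nr1d1 (4.35), Nr1d2 (3.09), Bhlhe40 (0.74), Ciart (4.99), Dbp (5.70) and Tef (2.26). Among those that rose it was negative for Arntl (-3.05), Npas2 (-2.13), Cry1 (-0.99) and Nfil3 (-1.72). Outside the core clock list it was positive for Epm2a (3.54), Ccdc116 (3.81), Rasd2 (2.23), Prtg (1.90), Tspan4 (1.36), Wee1 (1.096) and Cyp2a3 (1.34), all of which fell in control rats, and negative for Eln (-1.78), Hs3st6 (-2.57), Cxcl5 (-3.95), Spon2 (-1.76), Fibin (-1.89), Clspn (-1.50), Hs3st3a1 (-1.91), Acsm5 (-1.45), Angptl4 (-0.99), Lcn2 (-1.86), Fgg (-0.90) and Cyp4b1 (-0.65), all of which rose in control rats. The value of Ciart rests on D28 control signals at the floor of the arrays. Cxcl10, which fell in both, had a difference of -1.53.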

How the results depend on the processing

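The count of 152 genes was 249 with the slide as a block, 88 with normexp background correction, 99 in the series matrix values, 85 with the 10 arrays fitted on their own, 375 with no fold limit and 655 with an unadjusted p and the fold limit. It was 119 in a fit of those arrays with the slide as a block, chosen after seeing the data, and between 135 and 175 with each array left out. The exposed count of 416 was 195 with normexp, 235 in the series matrix, 191 with only its arrays (160 with the slide block), 1307 with no fold limit and 1048 with an unadjusted p. The 308 differences became 522 and 1072 under the last 2 rules. The 13 shared genes became 21 with the slide block, 5 with normexp, 5 in the series matrix, 6 with only the arrays compared (0 with the slide block), 79 with no fold limit and 51 with an unadjusted p. The cause of these shifts was not tested. The comparisons at D90 and D180 were run under 1 setting.

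Replicate numbers did not pair the rats: deviations of same-numbered D3 and D28 rats correlated at 0.14, 0.15, 0.20, -0.15 and -0.35, and no such pair shared a slide. With the replicate number as a block 148 genes were called.

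Of 45 named called genes, 34 kept their call with each array left out and 22 under every setting too. Calls were lost by 10 with normexp, 8 in the series matrix, 2 with 75th percentile scaling (Olr1148 and Olr778), and 14 with only the arrays compared (16 with the slide block). Lcn2, Cyp2a3, Gadd45g, Alas2 and Lipe were among the 14. Of the 12 clock calls, Cry1 alone was lost in any. The direction reversed only for genes that were not called: Per1 (-0.0385 in the series matrix) and Fbxw11 (0.00883 with normexp and 0.000929 in the series matrix). With each array left out, log2 changes ran from -0.00754 to 0.16 for Rora, -0.65 to 0.40 for Rorb, -0.24 to 0.27 for Per1, -0.0539 to 0.15 for Csnk1d and -0.11 to 0.0431 for Fbxw11. Signal near background limits Rorb, Arntl2, Prtg, Gpr84 and the genes given as bounds.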
